A study of Oryza sativa Japonica Group with 12 samples.

Results

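MADS-box genes encode transcription factors that bind CArG boxes in DNA as dimers and larger complexes. In rice, subfamilies of these genes act in the timing of flowering, in the identity of meristems and floral organs, in brassinosteroid signalling, in tillering and in root responses to nitrate. The members described here are all genes of the array whose symbol or synonym is MADS followed by a number, read from a probe set listed with 1 gene. There were 31 such genes among 17905 genes with a probe set of this kind, and for the 4 genes with several probe sets the probe set with the highest mean over the 12 arrays was used. The rule itself used no difference between groups, but it was chosen with earlier results of these data known.

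Transcript signals came from the Affymetrix Rice Genome Array, on which a set of short probes stands for a transcript. RNA was taken from the basal 5 mm of shoots of Nipponbare rice, either homozygous for gs1;2, a mutation in the gene of a cytosolic glutamine synthetase that assimilates ammonium, or wild type. The 4 groups were gs1;2 at 11 d, wild type at 11 d, gs1;2 at 7 d and wild type at 7 d, with 3 arrays each and 12 in all. All plants grew in hydroponics with 1 mM ammonium and no other nitrogen source. A seedling shoot base of this kind can hold the shoot meristem, leaf bases, axillary buds and crown root primordia, and no flowers. All signals are on a log2 scale, and a difference passed at an adjusted p under 0.05 in the limma fit across all 57194 probe sets. Levels are given gene by gene and not ranked between genes, since different probes differ in brightness.

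The array check of the targeted gene, GLN1-2, went against a label. Its signals on the 11 d arrays labelled gs1;2 were 8.37, 8.65 and 11.44, against 12.44, 12.42 and 12.50 in wild type. At 7 d they were 7.76, 7.65 and 7.80 in gs1;2, against 12.38, 12.30 and 12.46 in wild type. The array labelled gs1;2 11 d replicate 3 thus had a signal nearer to wild type than to its own group, and values without this array are given where they change a call. Pearson correlations over all probe sets were 0.994 to 0.997 within groups and 0.978 to 0.985 between wild type at 11 d and the other groups, which correlated with each other at 0.987 to 0.995. The growth text also assigns a run of numbered samples to a growth chamber and a longer culture, and the sample numbers in the titles of the 11 d wild-type arrays fall in that run. A difference in growth conditions cannot be told apart from genotype at 11 d or from age in wild type.

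Of the 31 MADS-box genes, 10 reached a signal of 6 in every array of at least 1 group, a convention used here in place of detection calls. Of these, 8 were at or above 6 in all 12 arrays, namely MADS2, MADS4, MADS16, MADS22, MADS26, MADS47, MADS50 and MADS55. MADS18 met it in every group but wild type at 7 d, and MADS56 in wild type at 11 d alone. The other 21 genes had no array at 6, with signals between 1.95 and 5.58. The share of all probe sets that met this rule was not counted, so the count of 10 is not read as many or few. For scale, the MADS56 mean over the 12 arrays, 5.94, lay at percentile 60.2 of all tested probe sets.

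All 3 SVP-like genes, MADS22, MADS47 and MADS55, which act as negative regulators of brassinosteroid responses in rice, were above this floor, with signals from 8.02 to 11.46. Both SOC1-like genes were counted as well. MADS50 promotes flowering in long days and MADS56 represses it, and their signals spanned 5.37 to 7.79. All 3 genes of the AP3/PI-like group met the floor, at 6.69 to 8.60. These are MADS2 and MADS4, of the PI type, and MADS16 (SUPERWOMAN1), of the AP3 type, all known for class B functions in lodicules and stamens. Of the AGL12-like pair, MADS26, a negative regulator of stress and pathogen resistance, met the floor and MADS33 did not. Of the 4 AP1/FUL-like genes, among which MADS14, MADS15 and MADS18 act in inflorescence meristem specification, MADS18 alone met it.

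The other floral subfamilies lay under the floor. The 13 genes of the SEP-like, AGL6-like, AG/STK-like and B-sister groups had signals between 1.95 and 5.12, and 0 of them met it. They include MADS1 (LEAFY HULL STERILE1), which acts in the spikelet, MADS3 and MADS58, which act in stamens and carpels, MADS13, which acts in ovules, and MADS29, which acts in the seed. The 4 AGL17-like genes, among them MADS27, which acts in root responses to nitrate, were also under it, at 2.54 to 4.62. A low signal does not show that a transcript was absent, since no detection call was used.

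**Figure D1:**
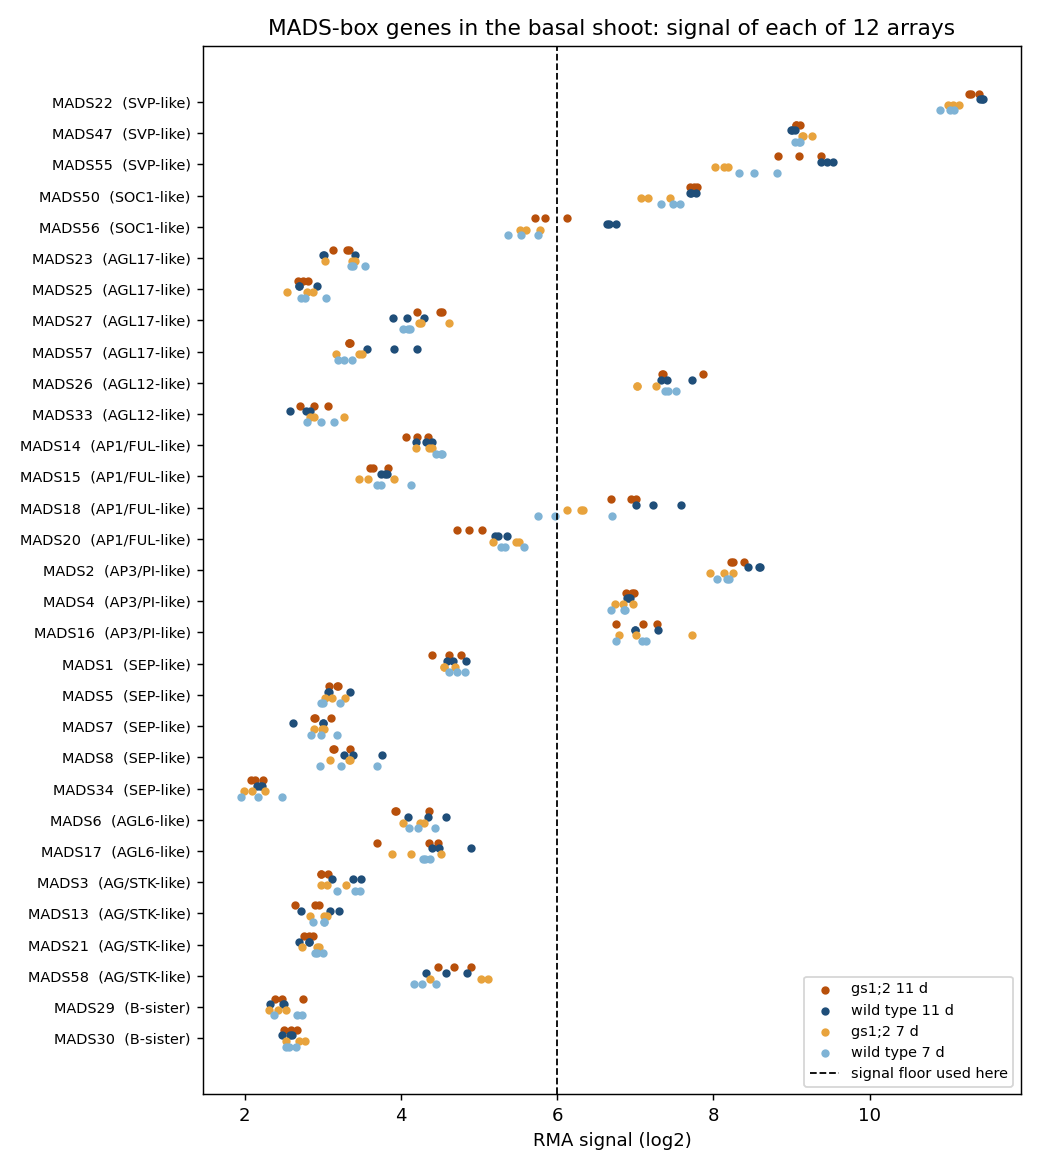
RMA signal (log2, x axis) of the 31 MADS-box genes on each of the 12 arrays, with genes grouped by subfamily down the page and points coloured by group. The dashed line marks the floor of 6, and the SEP-like, AGL6-like, AG/STK-like and B-sister genes all lie left of it, between 1.95 and 5.12.

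At 11 d, 3 of the 31 genes were lower on the arrays labelled gs1;2 than in wild type and 0 were higher. They were MADS56, MADS57 and MADS20. Across all 57194 probe sets 25.9% passed in this comparison, and with 1 probe set per gene 46.7% did (22.8% lower, 23.9% higher), so the share of MADS-box genes that passed, 9.68%, lay below both. The background depended on signal, with 44.5% of the probe sets above the median mean signal and 7.31% of those below it passing, and 20 of the 31 genes lay below that median. The median difference of the 31 genes was -0.06, against 0.02 for all genes with 1 probe set each.

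MADS56, the SOC1-like repressor of flowering, had signals of 5.84, 5.72 and 6.13 on the 11 d arrays labelled gs1;2, against 6.64, 6.67 and 6.76 in wild type. All 3 wild-type arrays were above every gs1;2 array, and replicate 3, the array in doubt, was the highest of its group. The difference was -0.79 (SE 0.12, 95% interval -1.06 to -0.53, adjusted p = 0.000371), a 1.73-fold lower signal. Without the array in doubt it was -0.91 (adjusted p = 0.000196). At 7 d the signals were 5.52, 5.59 and 5.78 in gs1;2, against 5.54, 5.37 and 5.75 in wild type. These groups overlapped, with a difference of 0.08 (95% interval -0.18 to 0.34, adjusted p = 0.797).

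MADS57, an AGL17-like gene whose product represses the strigolactone receptor gene D14 and interacts with TB1 in tillering, had signals of 3.35, 3.33 and 3.34 on the 11 d arrays labelled gs1;2, against 3.56, 4.20 and 3.91 in wild type. The gs1;2 arrays lay close together and below all wild-type arrays, which spread more widely. The difference was -0.55 (SE 0.14, 95% interval -0.85 to -0.25, adjusted p = 0.00994). All these signals were under the floor of 6. At 7 d MADS57 read 3.46, 3.50 and 3.17 in gs1;2, against 3.19, 3.38 and 3.27 in wild type, and the groups overlapped.

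MADS20, of the AP1/FUL-like group, gave 4.87, 4.72 and 5.04 on the 11 d arrays labelled gs1;2, against 5.20, 5.36 and 5.24 in wild type. The groups did not overlap, and both were under the floor. The difference was -0.39 (SE 0.12, adjusted p = 0.0239). This call was lost in 4 of the 12 fits that left out an array, those without wild type 11 d replicate 2 (adjusted p = 0.0922) or replicate 3 (adjusted p = 0.0542), and without gs1;2 11 d replicate 1 (adjusted p = 0.0648) or replicate 2 (adjusted p = 0.105).

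The other 28 genes did not pass at 11 d, with differences from -0.41 to 0.32. MADS2 had signals of 8.25, 8.23 and 8.39 on the arrays labelled gs1;2, against 8.60, 8.44 and 8.58 in wild type. Its groups did not overlap, and its difference of -0.25 had an adjusted p of 0.0608, which fell to 0.0374 and 0.048 without gs1;2 7 d replicate 1 or 3. It also passed in 4 of 5 other settings, with quantile normalization the exception (adjusted p = 0.128). MADS22 had 11.27, 11.29 and 11.40, against 11.46, 11.41 and 11.44 in wild type. Its groups lay apart as well, by a difference of -0.11 (adjusted p = 0.312). MADS50 was close between genotypes at 11 d, at 7.75, 7.70 and 7.79 on the arrays labelled gs1;2, against 7.77, 7.71 and 7.70 in wild type. Its 95% interval ran from -0.19 to 0.23.

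**Figure D2:**
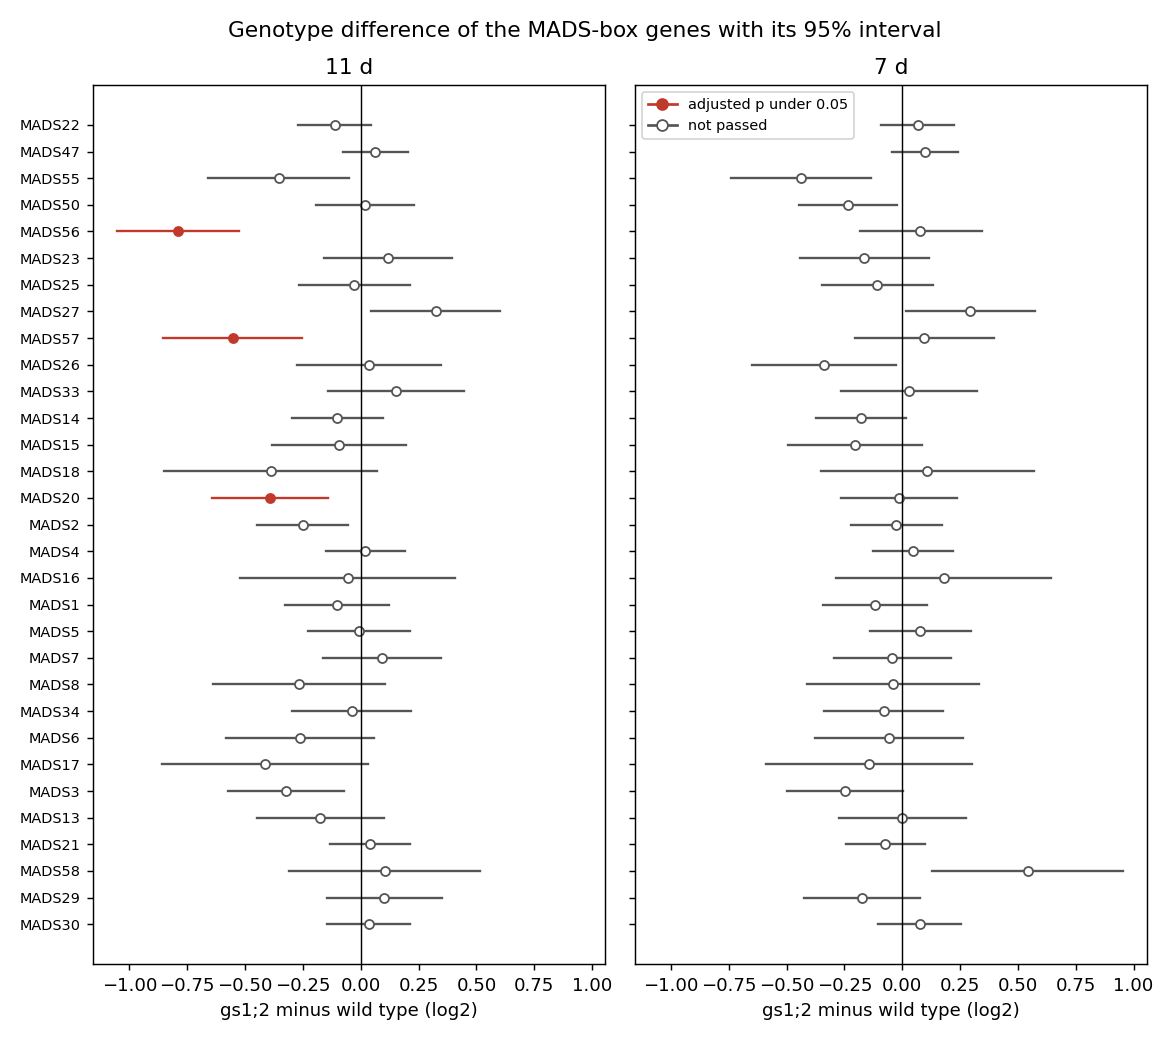
Difference of gs1;2 minus wild type (log2, x axis) for the 31 MADS-box genes at 11 d (left panel) and 7 d (right panel), with bars for the 95% interval of the limma fit. Filled red points passed at an adjusted p under 0.05, which MADS56, MADS57 and MADS20 did at 11 d and 0 genes did at 7 d.

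Markers of other tissues in the segment differed between the genotypes at 11 d too. The summed linear signal of 6 matched green leaf genes was 17201 to 18722 on the 11 d arrays labelled gs1;2, against 10764 to 11718 in wild type, and 5 of the 6 genes passed, all higher. This sum is weighted toward the brightest probe set, that of CAB2R, with mean log2 signals of 13.64 on the arrays labelled gs1;2 and 13.18 in wild type. RBCS, PORB and RCA were read from probe sets whose suffix marks cross-matching probes. Of the genes listed as root markers, SHR1 and SCR1 were matched and RCC3 was not. Both matched genes passed as higher, with sums of 426 to 450 on the arrays labelled gs1;2, against 242 to 270 in wild type. Whether these genes mark root alone in a shoot base was not tested. OSH1, OSH6 and OSH71, which are class I KNOX genes and mark the meristem, summed to 4486 to 4589 on the arrays labelled gs1;2, against 4408 to 5041 in wild type, and 1 of them passed as higher and 1 as lower (0 and 1 without the array in doubt). Among all genes with 1 probe set each, 23.9% passed as higher and 22.8% as lower in this comparison. CAB1R of the green leaf list and OSH15 of the KNOX list were not matched. No matched marker was at 0 on any array. At 7 d 0 of these 11 markers passed, against 1.25% of all genes with 1 probe set each. In bulk tissue fewer cells of a type and less RNA per cell cannot be told apart. The part of these markers in the results for MADS56, MADS57 and MADS20 was not tested.

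At 7 d, 0 of the 31 genes passed in limma, as with trend and robust moderation, and 5 had an unadjusted p under 0.05. The share of all probe sets under that unadjusted p was not counted, so no excess is read from the 5 genes. Across all probe sets 0.972% passed at this age, and 1.25% with 1 probe set per gene (0.464% lower, 0.787% higher). Differences ran from -0.44 for MADS55 to 0.54 for MADS58. The lower side held MADS55, MADS26 and MADS50 among those with an unadjusted p under 0.05, and the higher side held MADS58 and MADS27. The MADS27 groups did not overlap, with gs1;2 higher by 0.29 (adjusted p = 0.283) and every array under the floor.

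MADS55 had signals of 8.19, 8.14 and 8.02 in gs1;2 at 7 d, against 8.33, 8.52 and 8.81 in wild type. The genotypes did not overlap at this age. The difference was -0.44 (SE 0.14, adjusted p = 0.152). At 11 d its signals were 9.09, 8.82 and 9.37 on the arrays labelled gs1;2, against 9.53, 9.45 and 9.38 in wild type. The genotypes again did not overlap, though replicate 3 labelled gs1;2 lay just under the lowest wild-type array. That difference was -0.36 (SE 0.14, adjusted p = 0.0853), and without the array in doubt it was -0.49 (adjusted p = 0.0191).

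MADS58 had 4.37, 5.12 and 5.02 in gs1;2 at 7 d, against 4.27, 4.17 and 4.45 in wild type. Replicate 1 of gs1;2 lay among the wild-type values and the other gs1;2 arrays above them. The difference was 0.54 (SE 0.19, adjusted p = 0.189), and it passed without gs1;2 7 d replicate 1 (adjusted p = 0.0306). MADS26 had 7.26, 7.02 and 7.03 in gs1;2 at 7 d, against 7.52, 7.42 and 7.38 in wild type. Its groups did not overlap, with a difference of -0.34 (SE 0.14, adjusted p = 0.271).

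The change of the genotype difference between the ages was tested as an interaction, and 2 of the 31 genes passed. Both changed toward a more negative difference of gs1;2 minus wild type at 11 d. Over all probe sets 20.6% passed in this test, and 38.2% with 1 probe set per gene, with 19.6% of genes in this direction and 18.6% in the other. The change was -0.87 for MADS56 (SE 0.17, adjusted p = 0.00322) and -0.65 for MADS57 (SE 0.20, adjusted p = 0.0332). The call of MADS56 held in all 12 fits that left out an array, whereas that of MADS57 held in 3 of 12, with an adjusted p up to 0.0766. Without the array labelled gs1;2 11 d replicate 3, MADS57 had an adjusted p of 0.0583. From 7 to 11 d MADS56 rose by 1.136 in wild type, against a change of 0.265 in gs1;2 that did not pass (adjusted p = 0.249). MADS57 rose by 0.611 in wild type, against a change of -0.038 in gs1;2 that did not pass (adjusted p = 0.931).

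As the mean over both ages, a contrast chosen after the values at each age were seen, gs1;2 differed from wild type in 4 of the 31 genes, with 3 lower and 1 higher. The share that passed was 15.9% of all probe sets, or 28.6% with 1 probe set per gene (14.3% in each direction). MADS55 was lower by this contrast, at -0.40 (SE 0.10, adjusted p = 0.0161), and passed in all 12 fits that left out an array. MADS56 was also lower, at -0.36 (adjusted p = 0.0137). MADS3, a class C gene, at -0.29 (adjusted p = 0.0322), and MADS27, at 0.31 (adjusted p = 0.0364), passed in 4 of the 12 fits each, and both had signals under the floor on every array. Without the array in doubt MADS27 had an adjusted p of 0.0774.

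In wild type, 6 of the 31 genes were higher at 11 d than at 7 d and 0 were lower. Among all probe sets 31.8% passed in this comparison, and 53.8% with 1 probe set per gene (25.5% higher, 28.4% lower). The 6 were MADS56, MADS18, MADS55, MADS57, MADS22 and MADS2, and each passed in all 12 fits that left out an array. This comparison shares the 11 d wild-type arrays with the genotype comparison at 11 d and with the interaction, so a gene called in several of them is not supported more than once.

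MADS56 was 1.14 higher at 11 d in wild type (SE 0.12, adjusted p = 1.91e-05). MADS18 had 7.00, 7.58 and 7.23 in wild type at 11 d, against 5.97, 5.75 and 6.70 at 7 d. The ages did not overlap, although 7 d replicate 3 lay near the 11 d range. The difference was 1.13 (SE 0.21, adjusted p = 0.00118). MADS55 was 0.90 higher (adjusted p = 0.000305) and MADS57 was 0.61 higher (adjusted p = 0.00426). MADS22 read 11.46, 11.41 and 11.44 at 11 d, against 11.03, 10.90 and 11.08 at 7 d in wild type. Its small rise of 0.43 exceeded the spread between arrays (SE 0.07, adjusted p = 0.000568). MADS2 had 8.60, 8.44 and 8.58 at 11 d, against 8.18, 8.05 and 8.20 at 7 d, a difference of 0.40 (adjusted p = 0.00424).

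In gs1;2, 2 genes were higher at 11 d than at 7 d, MADS55 and MADS50, and MADS20 was lower. Among all probe sets 8.47% passed, and 15.5% with 1 probe set per gene (6.51% higher, 8.98% lower), against 9.68% of the 31 genes. MADS55 rose by 0.98 (SE 0.14, adjusted p = 0.000906), and by 0.84 without the array in doubt (adjusted p = 0.00328). MADS50 had 7.75, 7.70 and 7.79 on the 11 d arrays labelled gs1;2, against 7.44, 7.07 and 7.16 at 7 d. Every 11 d array was above the 7 d arrays, and the difference was 0.52 (SE 0.10, adjusted p = 0.00496). In wild type MADS50 had 7.77, 7.71 and 7.70 at 11 d, against 7.33, 7.48 and 7.57 at 7 d, a difference of 0.27 (adjusted p = 0.0518). It passed in 3 of the 12 fits that left out an array, those without wild type 7 d replicate 3 or gs1;2 7 d replicate 1 or 2, and in 4 of 5 other settings, with quantile normalization the exception (adjusted p = 0.142). The genotype difference of its age change, 0.25, did not pass (adjusted p = 0.238), except without gs1;2 7 d replicate 1 (adjusted p = 0.0449).

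MADS20 read 4.87, 4.72 and 5.04 on the 11 d arrays labelled gs1;2, against 5.51, 5.18 and 5.47 at 7 d. The ages did not overlap, and the difference was -0.51 (SE 0.12, adjusted p = 0.0158). This call was lost without gs1;2 7 d replicate 1 (adjusted p = 0.0608) or replicate 3 (adjusted p = 0.0651), and without gs1;2 11 d replicate 1 (adjusted p = 0.0521) or replicate 2 (adjusted p = 0.0702). MADS18 had 6.95, 6.68 and 7.01 at 11 d, against 6.12, 6.30 and 6.33 at 7 d in gs1;2. Although the ages lay apart, its difference of 0.63 had an adjusted p of 0.0971, and of 0.0195 without wild type 7 d replicate 3. MADS22 and MADS26 also did not pass in gs1;2, with age differences of 0.25 (adjusted p = 0.0557) and 0.42 (adjusted p = 0.105). MADS22 passed in 2 of 5 other settings, and the MADS26 difference was 0.25 without the array in doubt (adjusted p = 0.329).

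**Figure D3:**
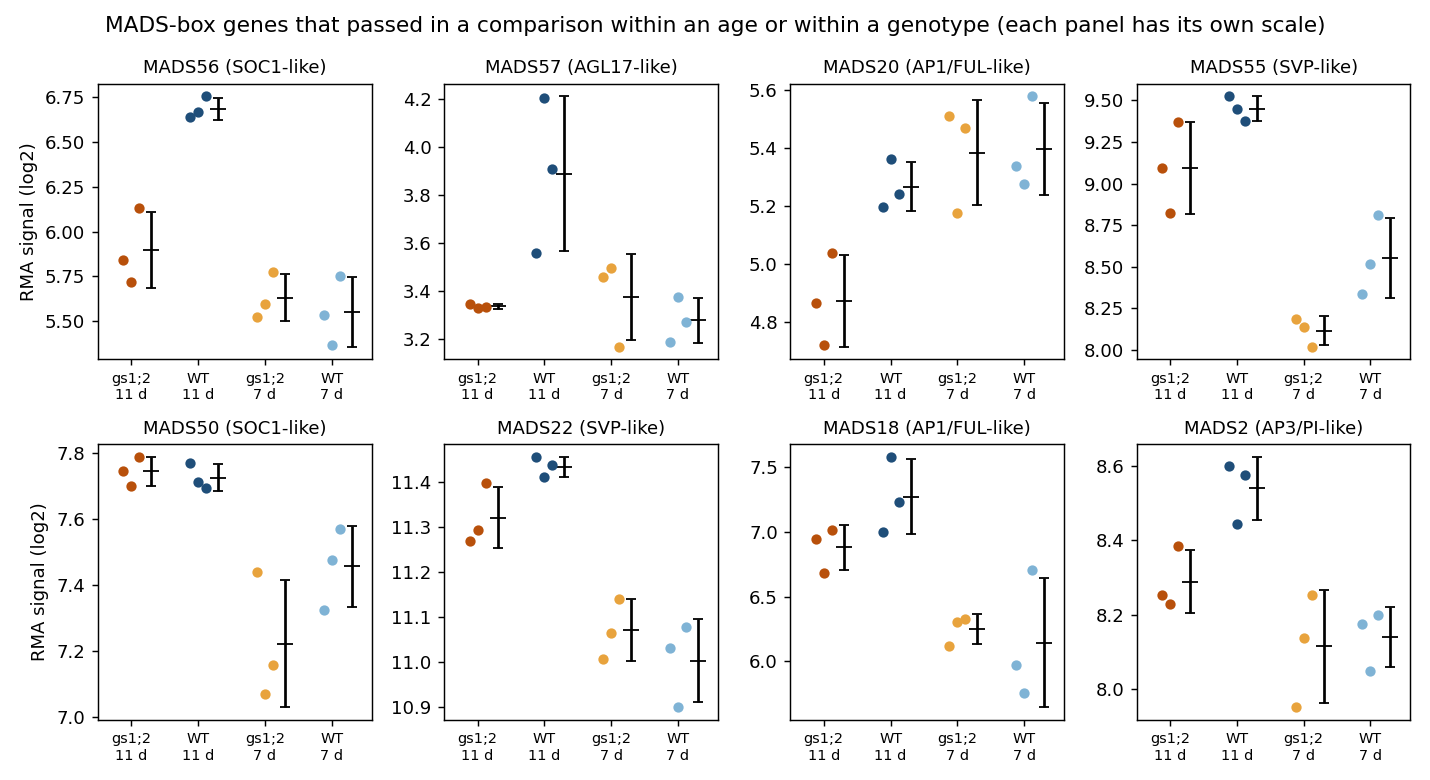
RMA signal (log2, y axis, a separate scale per panel) of the 8 MADS-box genes that passed in a comparison within an age or within a genotype. Points are arrays, and the line with bars gives the mean and SD of the 3 arrays of a group. MADS56 and MADS57 show the 11 d wild-type arrays above all other groups, while MADS55 shows both 11 d groups above both 7 d groups.

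Among the genes above the floor, MADS4, MADS16, MADS26 and MADS47 did not pass in any of the contrasts. MADS47 had 9.06, 9.06 and 9.10 on the 11 d arrays labelled gs1;2, against 9.04, 8.99 and 9.00 in wild type. At 7 d it had 9.13, 9.15 and 9.26 in gs1;2, against 9.11, 9.04 and 9.10 in wild type. The MADS47 groups did not overlap at either age, with gs1;2 higher by 0.06 at 11 d (adjusted p = 0.561) and by 0.10 at 7 d (adjusted p = 0.485). The 95% intervals of its 2 genotype differences ran from -0.08 to 0.20 at 11 d and from -0.04 to 0.24 at 7 d, so a change of the size seen for MADS56 lay outside both. MADS4 signals stayed between 6.69 and 6.98 over the 12 arrays, with intervals from -0.15 to 0.19 at 11 d and from -0.13 to 0.22 at 7 d. MADS16 was less precise, with an interval from -0.52 to 0.41 at 11 d, and its highest array, gs1;2 7 d replicate 2, read 7.73.

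Other genes of flowering time and meristem identity were counted from a list of 23, of which 12 were matched to a gene of the array. At 11 d, 6 of the 12 were lower on the arrays labelled gs1;2 than in wild type, 1 was higher and 5 did not pass, and the same numbers were found without the array in doubt. The share of all genes that passed at 11 d was 46.7% (22.8% lower, 23.9% higher), so nothing particular to the list is read from these counts. At 7 d 0 of the 12 passed, against 1.25% of all genes with 1 probe set each. The 6 lower genes were GI and HD1, of the photoperiod pathway, DTH8, a repressor of flowering in long days, and the phytochromes PHYA, PHYB and PHYC. The higher gene was RCN1, a TFL1-like gene that delays the transition of meristems.

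GI had 10.66, 10.86 and 10.86 on the 11 d arrays labelled gs1;2, against 11.88, 11.97 and 12.01 in wild type, a difference of -1.16 (adjusted p = 6.7e-07). HD1, under the floor of 6 on every array, differed by -0.70 (adjusted p = 0.0108) and PHYA by -0.79 (adjusted p = 0.00137). PHYB differed by -0.48 (adjusted p = 0.00027), PHYC by -0.65 (adjusted p = 7.76e-05) and DTH8 by -0.42 (adjusted p = 0.03). The DTH8 groups overlapped. RCN1 had 6.25, 6.51 and 6.37, against 6.003, 6.02 and 5.73 in wild type, a difference of 0.46 (adjusted p = 0.0191). The calls of DTH8 and RCN1 were lost in 4 and 2 of the 12 fits that left out an array, and the other 5 held in all 12. The florigen gene HD3A did not pass, with signals of 3.37, 3.21 and 3.21, against 3.37, 3.18 and 3.36 in wild type, all under the floor.

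D14, a reported target of MADS57, and TB1, a reported partner, both passed at 11 d. In this comparison 46.7% of all genes with 1 probe set each passed, so nothing particular to the pair is read from this count. D14, the strigolactone receptor gene that MADS57 is known to repress, had 10.20, 10.35 and 10.67 on the arrays labelled gs1;2, against 12.20, 12.41 and 12.38 in wild type. The difference was -1.93 (SE 0.18, adjusted p = 9.36e-06). MADS57 was also lower, under the floor of 6. Both differences use the same 11 d wild-type arrays, and a relation between them was not tested. TB1, a repressor of bud outgrowth, had 6.50, 6.45 and 5.86, against 5.21, 5.93 and 5.73 in wild type. The groups overlapped, its difference was 0.65 (SE 0.19, adjusted p = 0.0226), and 9 of 12 fits that left out an array kept the call. The change of the TB1 genotype difference between the ages was 0.65 (adjusted p = 0.108), and 0.86 without the array in doubt (adjusted p = 0.022).

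**Figure D4:**
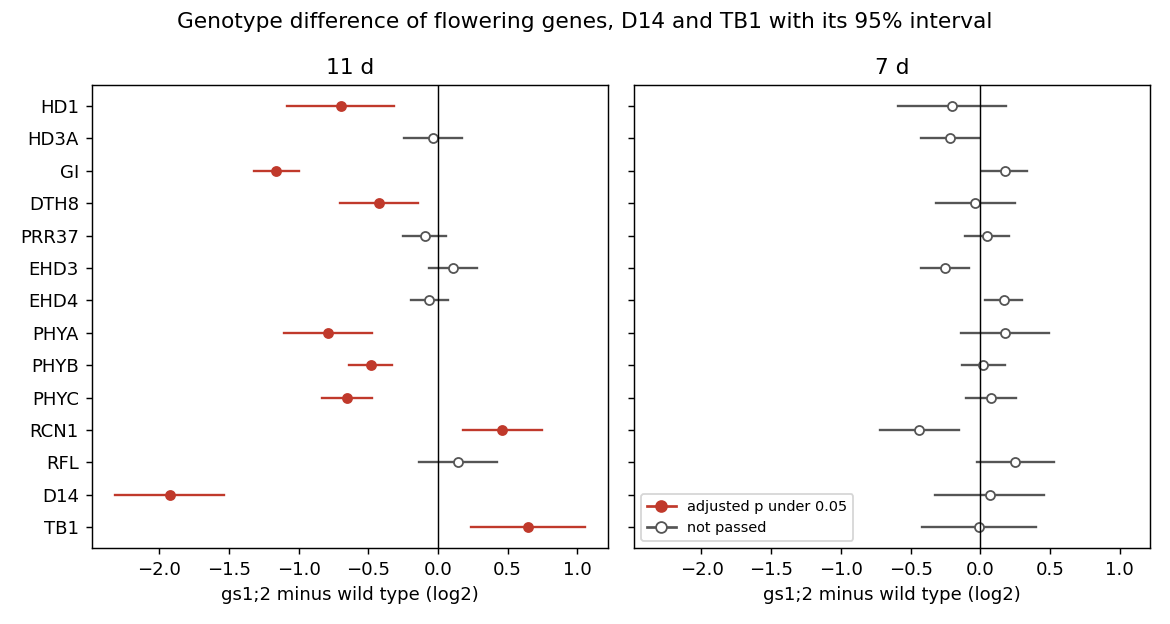
Difference of gs1;2 minus wild type (log2, x axis) for 12 flowering genes, D14 and TB1 at 11 d (left panel) and 7 d (right panel), with the 95% interval of the limma fit. Filled red points passed. At 11 d 6 of the 12 flowering genes passed as lower, and D14 lies farthest left at -1.93.

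The chosen probe set limits some genes. MADS15, MADS22 and MADS30 were read from probe sets whose suffix marks probes shared between transcripts, and MADS14 from one whose suffix marks cross-matching probes, so related transcripts could add to these signals. The other probe sets of MADS14, MADS15, MADS23 and MADS27 had means of 2.30 to 3.43, under the floor. Among these, 1 of MADS14 was lower at 11 d than at 7 d in wild type (-0.30, adjusted p = 0.0108), and so was the other probe set of MADS27 (-0.41, adjusted p = 0.0205), while the chosen probe set of MADS27 differed by 0.01. The gene table also lists MADS7 as MADS45, MADS8 as MADS24 and MADS18 as MADS28 and MADS2, and the name MADS2 is used here for the PI-type gene. In the gene table MADS14 lies next to MADS34, and MADS33 next to MADS13. On the chosen probe sets, 0 of these 4 genes passed in any contrast.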

How the data were processed

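RNA signals of 12 arrays were used as deposited. They are log2 values that the authors made with RMA, run under R 3.1.0 per the submitters' processing notes, which as used here give neither background correction nor summary options. Array medians lay between 4.944 and 5.005, and the arrays were not normalized again. Of 57381 probe sets, 187 controls were left out and 57194 tested. Gene names came from the probe annotation of the platform and from a gene table, whose coordinates served only to find neighbouring genes. A mean was fitted for each group over all 12 arrays with limma 3.58.1 in R 4.3.3 (default empirical Bayes), with Benjamini-Hochberg adjustment over all probe sets. Per the labels, arrays of a group are biological replicates, and their number limits the precision. The fit was tested on simulated data.

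The members and lists were chosen with earlier results of these data known. The text names every gene with a signal of at least 6 in every array of a group and every gene that passed, and gives other genes by range with examples. Alternatives were trend and robust moderation, quantile normalization, a common array median, leaving out dim probe sets, fitting only the groups compared, a minimum change of 1, the lowest probe set per gene, other floors and leaving out each array. Signal over background is unknown, because scanner files were not analysed here.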

Additional observations from a re-analysis of the deposited data

Results flagged for a closer look

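The 31 MADS-box genes, the 12 matched flowering genes, D14 and TB1 were put to the interaction test of limma. The genotype difference of 9 of them changed between 7 and 11 d. Changes are given as the difference at 11 d minus that at 7 d on the log2 scale. Among all genes with 1 probe set each, 38.2% passed this test (19.6% lower, 18.6% higher). Nothing particular to these genes is thus read from the count. The MADS-box genes were MADS56 at -0.871 (adjusted p = 0.00322) and MADS57 at -0.649 (adjusted p = 0.0332). Of the flowering list, GI changed by -1.332 (adjusted p = 1.23e-05), PHYA by -0.965 (adjusted p = 0.00506), PHYB by -0.503 (adjusted p = 0.00345) and PHYC by -0.73 (adjusted p = 0.000775). RCN1 changed by 0.901 (adjusted p = 0.00402). EHD3 changed by 0.361 (adjusted p = 0.0379), passed in 1 of the 12 fits that left out an array and had an adjusted p of 0.085 without the array labelled gs1;2 11 d replicate 3. D14 changed by -1.992 (adjusted p = 0.000205). Except for MADS57 and EHD3, these 9 calls held in all 12 fits that left out an array. Of the tissue markers, the green leaf genes PORA, PORB and PSAG changed by 2.114 (adjusted p = 0.000135), 1.227 (adjusted p = 0.00012) and 1.771 (adjusted p = 4.92e-05). SHR1 and SCR1, listed as root markers, changed by 0.693 (adjusted p = 0.0013) and 1.497 (adjusted p = 0.000219). Of the KNOX genes, OSH6 changed by 0.506 (adjusted p = 0.023) and OSH71 by -0.434 (adjusted p = 0.0181), and the OSH6 call held in 7 of the 12 fits. The 11 d wild-type arrays enter each of these tests, so a difference in their growth conditions cannot be told apart from these changes.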

How the results depend on the processing

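The count of MADS-box genes that passed at 7 d was 0, and 0 to 1 without an array, the 1 being MADS58 without gs1;2 7 d replicate 1. At 11 d it was 3, 5 with arrays set to a common median, and 2 to 5 without an array. The interaction gave 2, 1 with dim probe sets left out, and 1 to 3 without an array. For 11 d against 7 d the count was 6 in wild type (6 to 7 without an array) and 3 in gs1;2 (2 to 4 without an array). The mean over both ages gave 4, and 2 to 5 without an array. With dim probe sets left out it gave 2 of 11 genes, against 34% of the probe sets kept. Requiring a change of at least 1 (log2) left 0 in the comparisons at 11 d, of the interaction, in gs1;2 and over both ages, and 2 in wild type. The minimum change is a stricter rule by construction. Leaving out dim probe sets kept 11 of the 31 genes in the fit, without MADS57, MADS3 and MADS27. For the common median the cause was not tested. The difference of MADS27 between ages in wild type turned to -0.413 on its lowest probe set. Of 1166 planned values for the 14 genes above the floor or passed, 1120 stayed on the same side of the threshold. These 1120 include changes of direction where neither fit passed, which were not counted apart. Of the rest, 27 newly passed, 18 no longer passed and 1 turned direction with a fit that passed. With a floor of 5 or 7, 11 or 7 genes met it in place of 10. No paired analysis was possible because the replicate numbers were given in accession order and the numbers in the titles name samples without pairing arrays.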
